A study of Mus musculus with 24 samples.

Results

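The subject is 9 genes of the complement system, C1qa, C1qb, C1qc, C4b, C3, Cfb, Cfp, C3ar1 and C5ar1, taken by gene symbol out of 52976 gene names in deposited RNA-seq count tables of diabetic mouse wounds and of a macrophage cell line. Complement is a cascade of plasma and tissue proteins that tags microbes and damaged cells. C1q, built from the products of C1qa, C1qb and C1qc, recognises immune complexes and dying cells and starts the classical pathway, which cleaves C4 and then C3. Factor B and properdin amplify C3 cleavage in the alternative pathway, and the released fragments C3a and C5a act on leukocytes through the receptors C3aR1 and C5aR1. In tissues, macrophages are a main source of C1q, and wounds recruit both macrophages and neutrophils.

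The wounds came from mice labelled diabetic. One arm was treated with a hydrogel labelled Fmoc-KYF-AgNCs-3S1C-Hyd2, whose sample titles read TEOA, and the other was the untreated diabetic control; each arm was sampled at days 1, 7 and 14, with 3 libraries a group and 18 in all. The remaining 6 libraries came from RAW264.7, a mouse macrophage line, with 3 libraries labelled with the hydrogel and 3 labelled LPS, the bacterial lipopolysaccharide that activates macrophages. The hydrogel cell labels end in Hyd3, Hyd4 and Hyd5 and do not name LPS, while the overall design speaks of LPS-induced macrophages with or without gel, so whether the hydrogel cells also received LPS is not settled by the labels. No wound was from a non-diabetic mouse and no RAW264.7 library was labelled unstimulated. The mouse strain and the way diabetes was induced are not given in the sources used here. Nor is it given whether libraries of a group came from separate animals or cultures. P-values thus reflect how far libraries of a group differ, over all groups fitted together, which could be technical in part.

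Libraries held 12428907 to 27062593 counted read pairs in wounds and 17932839 to 23955760 in cells. Levels below are CPM, read pair counts scaled to a common library size after TMM normalization, done separately for wounds and cells. The groups differed in spread, while the wound tests took 1 spread per gene over all 6 wound groups. A p-value or SE for 1 day is thus not set by the libraries of that day alone. The 3 control libraries of day 7 and the 3 control RAW264.7 libraries were close to sampling noise: the median chi-square per gene between pairs was 0.639 to 0.799 and 0.503 to 0.620, where counting noise alone gives 0.455. It was 8.16 to 29.0 in the hydrogel wounds and 7.69 to 33.1 in the controls at day 1, and 1.87 to 5.75 in the hydrogel wounds and 9.13 to 37.4 in the controls at day 14. One control library stood apart at day 1 and one at day 14. Control day 1 replicate 1 had a summed skeletal muscle marker level of 8009 CPM, where replicates 2 and 3 of that group reached 158756 to 267107 CPM. Control day 14 replicate 1 had a summed keratinocyte marker level of 639 CPM, where replicates 2 and 3 of that group reached 4700 to 7003 CPM. For the 9 genes, counts past the threshold are given with and without these libraries. Median log2 fold changes, marker counts and results for other complement genes are given with all libraries only.

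The 3 C1q genes lie side by side on the minus strand of chromosome 4 in GRCm38.p6, in the order C1qb (chr4:136880129-136886187), C1qc (chr4:136889804-136893065) and C1qa (chr4:136895917-136898803). C3, C4b and Cfb are on chromosome 17, at chr17:57203970-57228136, chr17:34728380-34743882 and chr17:34856374-34862518. C3ar1 is at chr6:122847138-122856161, C5ar1 at chr7:16246745-16259540 and Cfp at chrX:20925454-20931555, and all 9 are on the minus strand. The RefSeq promoter table for GRCm38.p6 held 6 of the 9 genes, all but C1qa, Cfb and C4b. Each entry runs from 250 bases before to 50 after the start site. Promoters of 3 genes are shown because 2 are neighbours in the C1q cluster whose RNA levels moved together, and C3 is the most abundant of the 9 in reads. They are written 5′ to 3′ on the gene's strand, with capitals marking matches to 4 letter patterns searched on both strands.
C1qb, chr4:136886151-136886450, minus strand: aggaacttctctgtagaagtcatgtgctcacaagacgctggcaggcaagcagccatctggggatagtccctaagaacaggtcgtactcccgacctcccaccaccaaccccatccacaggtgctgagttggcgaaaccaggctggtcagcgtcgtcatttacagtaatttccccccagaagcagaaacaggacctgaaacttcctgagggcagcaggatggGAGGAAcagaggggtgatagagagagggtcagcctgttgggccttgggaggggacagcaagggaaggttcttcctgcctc
C1qc, chr4:136892865-136893164, minus strand: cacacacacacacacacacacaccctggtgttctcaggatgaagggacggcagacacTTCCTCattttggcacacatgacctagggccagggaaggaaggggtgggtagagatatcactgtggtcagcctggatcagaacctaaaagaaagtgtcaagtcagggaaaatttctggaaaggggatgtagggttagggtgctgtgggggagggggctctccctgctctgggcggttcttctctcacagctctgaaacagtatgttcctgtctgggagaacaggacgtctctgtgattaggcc
C3, chr17:57228087-57228386, minus strand: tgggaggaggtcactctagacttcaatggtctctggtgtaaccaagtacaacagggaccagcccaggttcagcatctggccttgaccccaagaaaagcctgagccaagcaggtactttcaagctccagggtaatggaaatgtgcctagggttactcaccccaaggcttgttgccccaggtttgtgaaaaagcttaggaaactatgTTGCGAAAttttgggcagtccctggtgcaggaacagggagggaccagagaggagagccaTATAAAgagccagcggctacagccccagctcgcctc
The C1qb and C1qc promoters each held 1 match to GAGGAA, the core bound by the myeloid factor PU.1, whose leftmost base was at -30 in C1qb and, on the other strand as TTCCTC, at -193 in C1qc. The Cfp promoter held 2 such matches, at 7 and 23. C3 held TTGCGAAA at -45, a match to the C/EBP half-palindrome pattern TTGCNNAA, and TATAAA at 15, and C3ar1 held TATAAA at -235. C5ar1 held none of the patterns, and the interferon response element was in none of the 6. Among 32851 promoters of the same length, 28.3% held GAGGAA, 10.8% TTGCNNAA, 13.6% TATAAA and 3.44% the interferon response element. These matches are descriptions of the letters only. The C1qb start site in RefSeq lies outside the gene span used for counting, so its positions may differ from those of the counted transcripts.

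In the fit of all libraries, hydrogel-treated and control wounds differed at days 7 and 14 for all of these genes except Cfb, and not detectably at day 1. The counts moved with the libraries and the fit used, as given below. Tests were edgeR quasi-likelihood F tests over 17592 genes with Benjamini-Hochberg adjustment and a threshold of 0.05. At day 1, 0 of 9 genes passed, beside 7.55% of all genes tested passing in either direction. At day 7, 8 of 9 fell in hydrogel wounds, beside 11.7% of all genes tested falling. At day 14 again 8 of 9 fell, beside 10.3% of all genes. The day 7 libraries were also summed within each group. That leaves 1 sample an arm at day 7 and takes the spread from the other groups. Counts past the threshold in that fit therefore cannot decide the day 7 comparison. The log2 fold changes in that fit were close to those reported, at -2.77 for C1qa at day 7 and -4.32 for C3 at day 14. The median log2 fold change of hydrogel over control over the 9 genes was 0.56 at day 1, -2.81 at day 7 and -4.29 at day 14, beside 0.04, 0.01 and 0.03 over all genes tested.

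**Figure D1:**
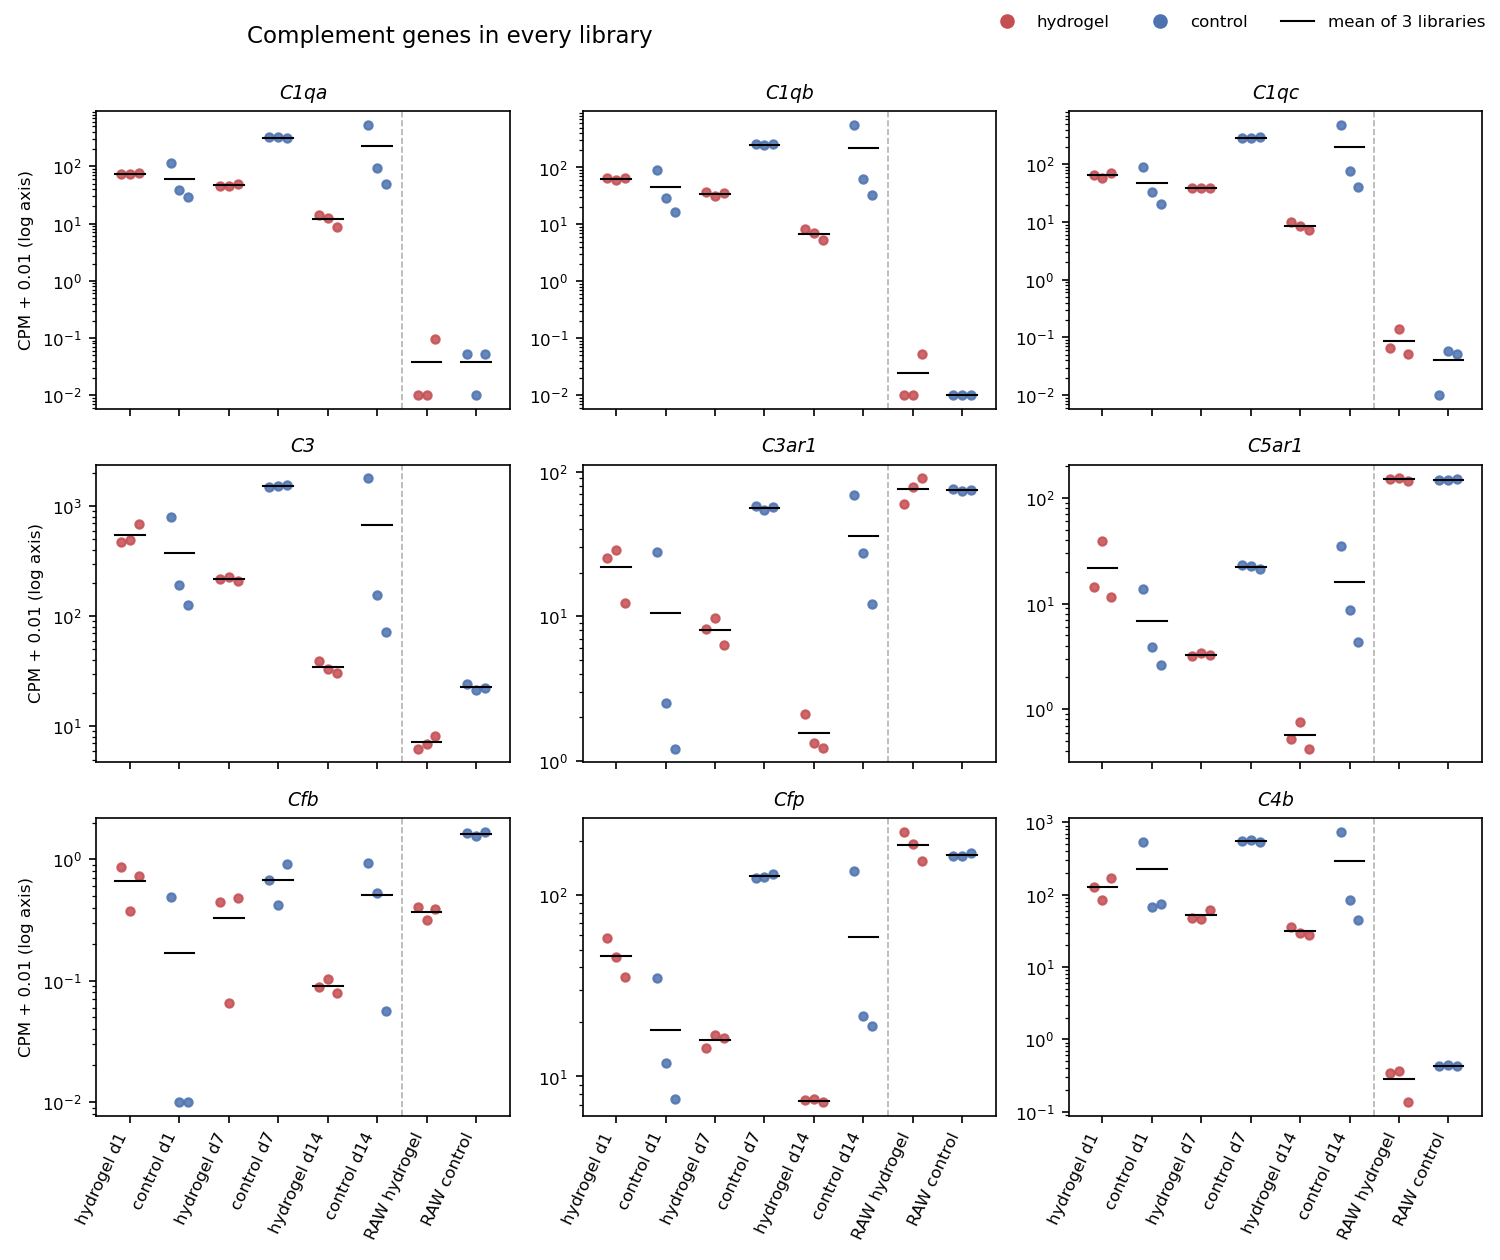
Level of each of the 9 genes in every library, as CPM plus 0.01 on a log axis, with hydrogel left of control at each day and RAW264.7 cells right of the dashed line; points are libraries and lines are means of 3. At day 14 the 3 hydrogel wounds lie below the 3 control wounds for every gene but Cfb, and the day 1 and day 14 controls are widely spread with 1 high library each.

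C1qa, C1qb and C1qc encode the A, B and C chains of C1q. C1qa stood at 72.3, 73.5 and 78.2 CPM in hydrogel wounds at day 1, against 113, 38.0 and 29.0 CPM in control wounds. At day 7 it stood at 45.8, 46.3 and 49.3 CPM in hydrogel wounds, against 321, 321 and 316 CPM in controls. At day 14 it stood at 14.1, 12.6 and 8.77 CPM in hydrogel wounds, against 536, 94.9 and 48.3 CPM in controls. The groups overlapped at day 1, where control replicate 1 was above and the other controls below every hydrogel library, and did not overlap at days 7 and 14. C1qa fell in hydrogel wounds by 2.76 ± 0.68 (SE) on the log2 scale at day 7 (adjusted p = 0.0117), a 6.78-fold lower level. It fell by 4.26 ± 0.73 at day 14 (adjusted p = 0.00261), a 19.2-fold lower level.

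C1qb was at 65.4, 60.4 and 64.9 CPM in hydrogel wounds at day 1, against 90.8, 28.8 and 16.7 CPM in controls. At day 7 it was at 37.5, 31.8 and 35.2 CPM in hydrogel wounds, against 254, 245 and 260.2 CPM in controls. At day 14 it was at 8.17, 6.96 and 5.35 CPM in hydrogel wounds, against 565, 63.2 and 33.0 CPM in controls. As for C1qa, the groups overlapped at day 1 alone. C1qb fell by 2.86 ± 0.80 (SE) at day 7 (adjusted p = 0.0211) and fell by 5.01 ± 0.89 at day 14 (adjusted p = 0.00308).

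C1qc was at 63.9, 58.6 and 70.4 CPM in hydrogel wounds at day 1, against 90.2, 33.7 and 20.1 CPM in controls. By day 7 it was at 39.6, 39.1 and 39.1 CPM in hydrogel wounds, against 283, 288 and 298 CPM in controls. By day 14 it was at 9.95, 8.61 and 7.15 CPM in hydrogel wounds, against 485, 75.8 and 40.9 CPM in controls. Hydrogel and control ranges again overlapped at day 1 and were apart at days 7 and 14. C1qc fell by 2.88 ± 0.70 (SE) at day 7 (adjusted p = 0.0112) and fell by 4.55 ± 0.76 at day 14 (adjusted p = 0.00237).

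At day 1 the log2 fold changes of C1qa, C1qb and C1qc were 0.31, 0.48 and 0.42, with adjusted p of 0.792, 0.72 and 0.723. With control day 1 replicate 1 left out they were 1.16, 1.49 and 1.26 (adjusted p = 0.278, 0.249 and 0.259). With control day 14 replicate 1 left out, the day 14 values were -2.60, -2.82 and -2.77 (adjusted p = 0.00376, 0.00442 and 0.00281), so the 3 calls at day 14 held while the size was smaller. In bulk tissue, fewer cells that express a gene and less of its RNA per cell cannot be told apart, which holds for every difference in the wounds.

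The proportions of the 3 chains varied far less than their level. Their summed level spanned 21.3 to 1586 CPM over the 18 wound libraries, a 74.6-fold range. Over the same libraries the ratio of C1qb to C1qa CPM ran from 0.553 to 1.05, with a median of 0.761. That of C1qc to C1qa ran from 0.685 to 0.941, with a median of 0.845. The C1qb to C1qa ratio was 0.553 to 0.610 in the day 14 hydrogel wounds, whose C1q sums were lowest. It was 1.05 in control day 14 replicate 1, whose sum was highest. By the root mean square difference of centred log2 CPM over the 18 libraries, C1qa and C1qc differed by 0.13 and C1qb and C1qc by 0.15.

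C4b encodes complement C4, the substrate of the C1 complex. It was at 129, 85.7 and 169.7 CPM in hydrogel wounds at day 1, against 532, 67.2 and 75.3 CPM in controls. On day 7 it was at 48.3, 45.9 and 62.2 CPM in hydrogel wounds, against 545, 573 and 539 CPM in controls. On day 14 it was at 35.6, 30.0 and 27.7 CPM in hydrogel wounds, against 746, 83.6 and 44.6 CPM in controls. The hydrogel wounds were below every control at days 7 and 14, whereas at day 1 a single control library, replicate 1, was above all others and the other controls were below the hydrogel wounds. C4b fell by 3.41 ± 0.92 (SE) at day 7 (adjusted p = 0.0177) and fell by 3.23 ± 0.91 at day 14 (adjusted p = 0.0265). Its day 1 value was -0.81 (adjusted p = 0.575), and 0.85 (adjusted p = 0.518) without control day 1 replicate 1. Without control day 14 replicate 1 its day 14 value was -1.05 (adjusted p = 0.374), which did not pass. C4b and C4a are near-identical in sequence, so the split of reads between them is uncertain.

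C3 encodes the central component on which the pathways converge, and had the most reads of the 9 genes in the wounds. It was at 468, 491 and 693 CPM in hydrogel wounds at day 1, against 798, 192 and 126 CPM in controls. At day 7 the gene was at 217, 226 and 208 CPM in hydrogel wounds, against 1483, 1515 and 1554 CPM in controls. At day 14 the gene was at 39.2, 33.4 and 30.5 CPM in hydrogel wounds, against 1792, 155 and 71.9 CPM in controls. The ranges overlapped at day 1 and were apart at both later days. C3 fell by 2.81 ± 0.90 (SE) at day 7 (adjusted p = 0.0369) and fell by 4.29 ± 0.96 at day 14 (adjusted p = 0.00896). The day 1 value was 0.56 (adjusted p = 0.708), and 1.79 (adjusted p = 0.211) without control day 1 replicate 1. The day 14 value was -1.72 (adjusted p = 0.0759) without control day 14 replicate 1, which did not pass.

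Cfp encodes properdin, the stabiliser of the alternative pathway C3 convertase, which leukocytes make. It was at 57.7, 45.6 and 35.6 CPM in hydrogel wounds at day 1, against 34.8, 11.8 and 7.48 CPM in controls. Day 7 levels were 14.4, 17.0 and 16.3 CPM in hydrogel wounds, against 125, 126 and 131 CPM in controls. Day 14 levels were 7.38, 7.46 and 7.22 CPM in hydrogel wounds, against 136, 21.5 and 18.9 CPM in controls. Cfp was the 1 gene of the 9 whose groups did not overlap at day 1, with every hydrogel wound above every control, a pattern that 9.57% of all genes showed. The day 1 difference was 1.36 ± 0.62 (SE) on the log2 scale and did not pass (adjusted p = 0.183). It was 2.26 without control day 1 replicate 1 (adjusted p = 0.0423). Cfp fell by 3.00 ± 0.66 at day 7 (adjusted p = 0.00679) and fell by 3.00 ± 0.66 at day 14 (adjusted p = 0.00825). The day 14 value was -1.46 (adjusted p = 0.0514) without control day 14 replicate 1, which did not pass.

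Cfb encodes factor B, the serine protease of the alternative pathway convertase. It was at 0.859, 0.368 and 0.725 CPM in hydrogel wounds at day 1, against 0.476, 0 and 0 CPM in controls. At day 7 it was at 0.431, 0.0560 and 0.468 CPM in hydrogel wounds, against 0.669, 0.406 and 0.908 CPM in controls. At day 14 it was at 0.0789, 0.0936 and 0.0691 CPM in hydrogel wounds, against 0.928, 0.514 and 0.0458 CPM in controls. The groups overlapped on every day, and the summed counts behind a group were 7 to 31. Log2 fold changes of 1.96, -1.08 and -2.49 at days 1, 7 and 14 did not pass (adjusted p = 0.252, 0.433 and 0.109). Of the exonic bases of Cfb, 79% are shared on the same strand with Gm20547, a read-through gene model that held 0 counts in every library. Read pairs that touch more than 1 gene were not counted, so the level of Cfb is understated and its wound values limit what can be said.

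C3ar1 and C5ar1 encode the receptors for the anaphylatoxins C3a and C5a. C3ar1 was at 25.3, 28.7 and 12.4 CPM in hydrogel wounds at day 1, against 27.7, 2.50 and 1.20 CPM in controls. By day 7 it was at 8.18, 9.74 and 6.28 CPM in hydrogel wounds, against 57.6, 54.7 and 57.4 CPM in controls. By day 14 it was at 2.09, 1.31 and 1.21 CPM in hydrogel wounds, against 69.1, 27.3 and 12.2 CPM in controls. Groups overlapped at day 1 through control replicate 1 and were apart afterwards. C3ar1 fell by 2.81 ± 0.86 (SE) at day 7 (adjusted p = 0.0304) and fell by 4.56 ± 0.94 at day 14 (adjusted p = 0.00588). Its day 1 value was 1.08 (adjusted p = 0.425), and 3.59 (adjusted p = 0.00587) without control day 1 replicate 1. The day 14 call held without control day 14 replicate 1, at -3.69 (adjusted p = 0.0222).

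C5ar1 was at 14.3, 39.6 and 11.6 CPM in hydrogel wounds at day 1, against 13.9, 3.87 and 2.60 CPM in controls. On day 7 it was at 3.16, 3.42 and 3.27 CPM in hydrogel wounds, against 23.1, 22.8 and 21.1 CPM in controls. On day 14 it was at 0.513, 0.749 and 0.414 CPM in hydrogel wounds, against 35.4, 8.65 and 4.31 CPM in controls. Hydrogel day 1 replicate 2 was the highest hydrogel wound, and the groups overlapped at day 1 alone. C5ar1 fell by 2.76 ± 0.74 (SE) at day 7 (adjusted p = 0.0166) and fell by 4.82 ± 0.82 at day 14 (adjusted p = 0.00259). At day 1 its difference was 1.69 ± 0.70 with an unadjusted p of 0.0292 and an adjusted p of 0.144. It was 2.76 (adjusted p = 0.0334) without control day 1 replicate 1. Without control day 14 replicate 1 its day 14 value was -3.51 (adjusted p = 0.00603).

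**Figure D2:**
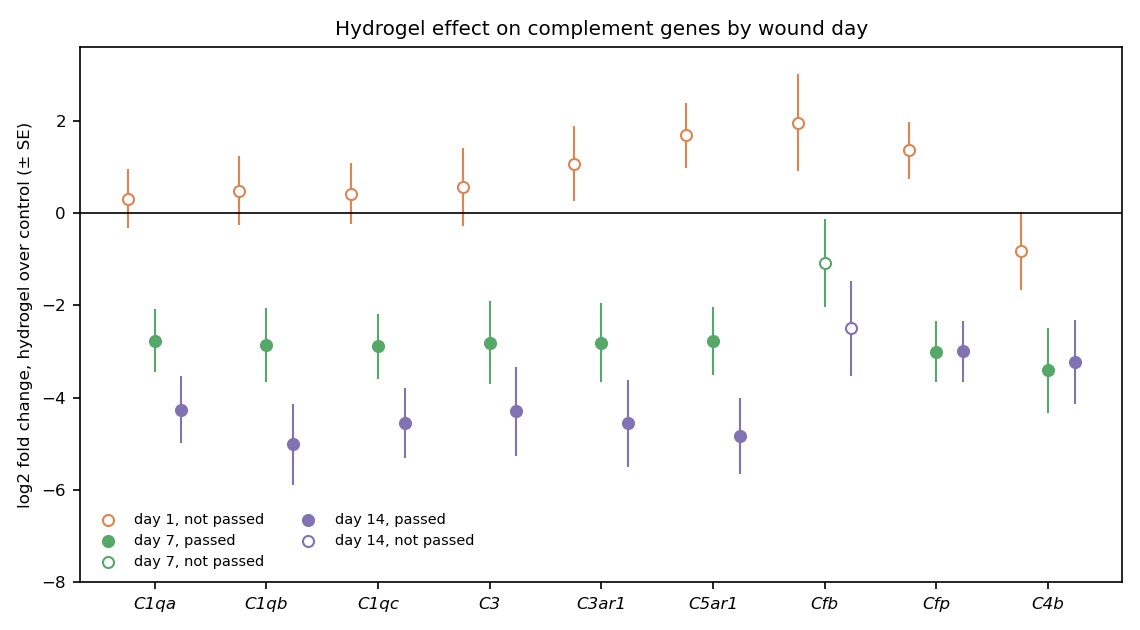
Log2 fold change of hydrogel over control wounds for each gene at days 1, 7 and 14, with standard errors derived from the edgeR F as bars. Filled circles passed an adjusted p of 0.05 and open circles did not. At day 1 every circle is open, and at days 7 and 14 Cfb alone is open, while the other 8 genes lie between -2.76 and -5.01.

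Over the 9 genes, 0 passed at day 1 with edgeR, 2 had an unadjusted p under 0.05 (C5ar1 and Cfp) and 0 passed with DESeq2. With limma-voom quality weights 8 passed upward, beside 4345 of all 17592 genes passing in either direction. Leaving out control day 1 replicate 1 gave 4 (C3ar1, C5ar1, Cfb and Cfp), beside 1720 of all genes. Leaving out control day 14 replicate 1 as well gave 8, all but C4b, beside 3564 of all genes. At day 7, hydrogel wounds lay below every control for 8 of 9 genes, a pattern 34.9% of all genes showed, and at day 14 for 8 of 9, beside 20.0% of all genes. Since the day 7 controls varied little more than counting noise, the day 7 libraries were also summed within each group, which left 0 of the 9 genes, and 0 of all genes, passing at day 7; as 1 sample against 1, with the spread taken from days 1 and 14, that comparison has no replicates of its own. At day 7, 3 passed without any 1 of the hydrogel libraries, beside 1859 to 1960 of all genes passing in either direction. The count was 6, 6 and 5 without control replicates 1, 2 and 3, beside 1990, 1877 and 1943 of all genes. At day 14, leaving out control day 14 replicate 1 left 5, namely C1qa, C1qb, C1qc, C3ar1 and C5ar1, beside 1264 of all genes passing in either direction. A fit of the day 14 groups alone left 1 of the 8 tested, C3ar1, beside 433 of all genes passing in either direction. A fit of the day 7 groups alone left 8 of the 8 tested, beside 11122 of all genes.

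The effect of the hydrogel differed between days for 7 of 9 genes by an interaction test with 2 differences (day 7 and day 14 against day 1), beside 15.8% of all genes tested. Adjusted p was 0.0125 for C1qa, 0.0129 for C1qb, 0.00996 for C1qc, 0.0358 for C3, 0.0157 for C3ar1, 0.00403 for C5ar1 and 0.00702 for Cfp. Cfb and C4b did not pass, with adjusted p of 0.0967 and 0.211. For C5ar1 the hydrogel effect was different from day 1 by -4.45 on the log2 scale at day 7 and by -6.51 at day 14. With the day 7 libraries summed, where each day 7 arm is 1 sample, the day 7 difference of Cfp was -4.35. It was -4.36 in the fit of all libraries.

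Within the control wounds the levels were highest, on average, at day 7 for all 9 genes. C1qa averaged 60.0 ± 46.2 CPM at day 1, 320 ± 2.80 CPM at day 7 and 227 ± 269 CPM at day 14 (SD, n = 3 each). C3 averaged 372 ± 370.2, 1517 ± 35.7 and 673 ± 970.2 CPM on the same days. From day 1 to day 7, 5 genes rose in controls (C1qa, C1qb, C1qc, C3ar1 and Cfp), beside 15.0% of all genes, with log2 fold changes of 2.41 to 2.82 and adjusted p of 0.0058 to 0.0387. The count was 9 without control day 1 replicate 1, but 1 (Cfp) without control day 1 replicate 2, and 2 without control day 1 replicate 3. Of all genes, 7953, 3304 and 3902 passed in either direction in those fits. The count was 3 without any 1 of the day 7 controls, beside 3454 to 3505 of all genes passing in either direction. With the day 7 libraries summed, where each day 7 arm is 1 sample, C1qa differed by 2.44. Day 14 against day 7 in controls gave 0 of 9 with edgeR, beside 12.2% of all genes in either direction. It gave 0 with an unadjusted p under 0.05 and 0 with DESeq2. With limma-voom weights 8 were lower, beside 7719 of all genes in either direction. Without control day 14 replicate 1, 6 of 9 fell, beside 4765 of all genes in either direction.

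Within the hydrogel wounds the means of all 9 genes stepped down with time. C1qa averaged 74.7 ± 3.16 CPM at day 1, 47.1 ± 1.89 CPM at day 7 and 11.8 ± 2.74 CPM at day 14 (SD, n = 3 each). C5ar1 averaged 21.8 ± 15.4, 3.28 ± 0.129 and 0.559 ± 0.172 CPM on the same days. C5ar1 was the 1 gene that fell between day 1 and day 7, by 2.73 on the log2 scale (adjusted p = 0.0211), beside 10.5% of all genes; without hydrogel day 1 replicate 2, or without any 1 of the day 7 hydrogel libraries, it did not pass. By contrast 8 of the 8 tested fell in a fit of those 6 libraries alone, beside 2676 of all genes passing in either direction. With limma-voom weights 8 of 9 fell, beside 9229 of all genes. In the fit without replicate 1 of control days 1 and 14, 8 of 9 fell, beside 6758 of all genes. From day 7 to day 14, 5 genes fell (C1qa, C1qb, C1qc, C3 and C5ar1), beside 9.60% of all genes, with adjusted p of 0.032 to 0.0464. Leaving out any 1 of the 6 libraries compared left 0, beside 1298 to 2790 of all genes passing in either direction. A fit of those 6 libraries alone gave 8 of the 8 tested, beside 10697 of all genes passing in either direction.

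Per length of exon (FPKM), C1qa and C3 were among the top 3 of the 9 genes in every wound group. At day 7 the order in hydrogel wounds was C1qa at 54.2, C3 at 44.9, C1qb at 31.996, C1qc at 20.3, C4b at 10.4, Cfp at 9.72, C3ar1 at 1.87, C5ar1 at 1.28 and Cfb at 0.113 FPKM, with ranges of C4b and Cfp overlapping. The order in day 7 controls was the same, with C1qa at 367 and C3 at 314 FPKM, and no neighbours overlapped. At day 14 the hydrogel wounds had C1qa at 13.6, C3 at 7.11, C1qb at 6.27 and C4b at 6.23 FPKM, and the ranges of C3, C1qb and C4b overlapped from one to the next. In the day 1 controls every pair of neighbours except C3ar1 and Cfb overlapped.

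Markers of macrophages moved with these genes. Of a list of 19 macrophage markers, 15 fell in hydrogel wounds at day 7 and 15 at day 14, with median log2 fold changes of -2.55 and -3.90, and 3 rose at day 1, beside 11.7% and 10.3% of all genes falling at days 7 and 14 and 4.53% rising at day 1. All 19 had counts in every wound group. Their summed level was 1867 to 2116 CPM in hydrogel wounds and 1389 to 4088 CPM in controls at day 1, 5397 to 5677 and 7509 to 7587 CPM at day 7, and 2497 to 2750 and 3992 to 12133 CPM at day 14. Apoe, which other cell types also express, and Lyz2 together made up 45.4% to 93.0% of that sum. At day 7 Lyz2 was at 171, 198 and 153 CPM in hydrogel wounds, against 1355, 1352 and 1365 CPM in controls. Apoe and Lyz2 together came to 5190, 5227 and 4997 CPM, against 5624, 5652 and 5703 CPM, most of it Apoe. Adgre1, which encodes the macrophage surface protein F4/80, was at 5.74, 4.37 and 6.15 CPM in hydrogel wounds at day 7, against 49.2, 52.3 and 52.3 CPM in controls.

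Relative to the summed macrophage markers, the summed C1q level (log2 ratio) was 0.88 higher in hydrogel than in control wounds at day 1, 2.39 lower at day 7 and 2.38 lower at day 14. Without Apoe and Lyz2 in the list the differences of hydrogel minus control were 0.03 at day 1, -0.68 at day 7 and -1.11 at day 14. The groups overlapped at day 1 on the shorter list and did not overlap at days 7 and 14 on either list. The C1q sum was also taken as a percentage of the shorter list's sum, in which the C1q genes are not included. It came to 28.4%, 26.1% and 30.9% in hydrogel wounds at day 7, against 45.5%, 45.0% and 46.4% in controls. At day 14 it came to 15.85%, 15.2% and 11.95% in hydrogel wounds, against 61.5%, 20.8% and 22.7% in controls. Control replicate 1 was thus far above the other day 14 controls. These ratios are descriptions, and their part in the falls above was not tested.

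**Figure D3:**
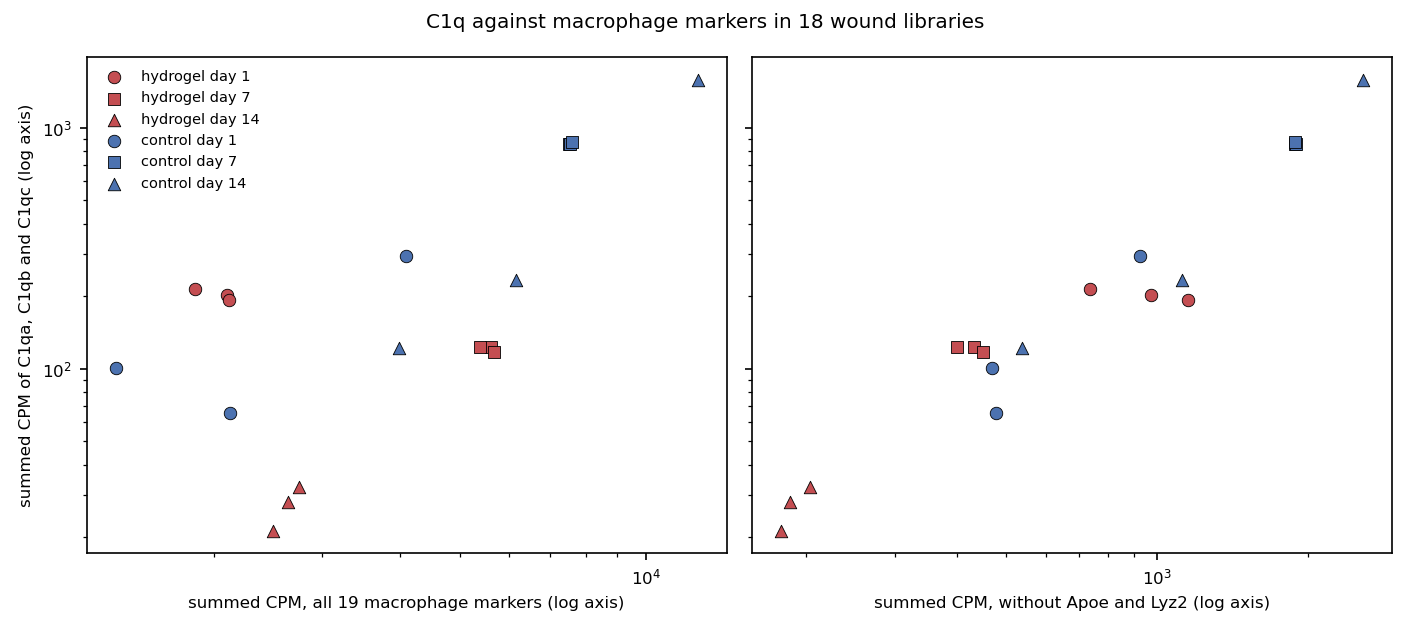
Summed CPM of C1qa, C1qb and C1qc (log axis) against the summed CPM of 19 macrophage markers (left) and of the same list without Apoe and Lyz2 (right), both log axes, 1 symbol for each of 18 wound libraries. On the left the day 7 hydrogel wounds lie at 117 to 124 CPM of C1q at macrophage sums of 5397 to 5677 CPM, whereas on the right they lie at sums of 400.0 to 449 CPM, closer to the other wounds.

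Markers of other cells moved as well. At day 7, 11 of 12 fibroblast markers and 9 of 12 adipocyte markers fell in hydrogel wounds and 9 of 13 keratinocyte markers and 4 of 12 muscle markers rose, beside 11.7% of all genes falling and 9.86% rising. The summed keratinocyte level was 8591 to 8695 CPM in hydrogel wounds and 716 to 730 CPM in controls at day 7, and the summed fibroblast level was 1807 to 1984 and 11396 to 11556 CPM. At day 14, 10 of 12 fibroblast markers fell, and 0 keratinocyte and 0 muscle markers passed. Of 14 neutrophil markers, 10 were tested: 3 rose at day 1, 1 rose and 1 fell at day 7, and 4 fell at day 14. Their summed level at day 1 was 966, 1026 and 201 CPM in hydrogel wounds and 173 to 238 CPM in controls. Hydrogel replicate 3 thus lay within the control range. Of 10 dendritic and mast cell markers, 0 passed at day 1, 2 fell at day 7, and 1 rose and 1 fell at day 14. The day 1 and day 14 counts stand beside 4.53% of all genes rising at day 1 and 10.3% falling at day 14. The part of these other cells in the complement differences was not tested.

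Of 45 other complement genes, 32 were tested in wounds. At day 1, 1 rose and 1 fell; at day 7, 2 rose and 16 fell; and at day 14, 0 rose and 20 fell. Beside these counts, 7.55% of all genes passed in either direction at day 1, and 11.7% and 10.3% fell at days 7 and 14. The list's median log2 fold change was 0.13, -1.58 and -1.97 on these days, beside 0.04, 0.01 and 0.03 over all genes. Clu, which encodes clusterin, an inhibitor of the terminal complex, rose at day 1 by 2.32 ± 0.36 (SE) on the log2 scale (adjusted p = 0.00328), at 319 CPM in hydrogel wounds and 63.8 CPM in controls on average. Cd46, a membrane cofactor for C3b cleavage, averaged 0.744 CPM in hydrogel wounds and 1.898 CPM in controls and fell by 1.34 (adjusted p = 0.0407).

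Components that act beside the 9 genes moved at the later days. Cfd, which encodes factor D, the fat-cell protease that cleaves factor B, averaged 369.7 CPM in hydrogel wounds and 16247 CPM in controls at day 7, and fell by 5.46 (adjusted p = 0.00566). Its day 14 difference of -1.26 did not pass (adjusted p = 0.391). Adipocyte markers summed to 1546 to 1723 CPM in hydrogel wounds and 25381 to 26020 CPM in controls at day 7. Fcna, a ficolin of the lectin pathway, averaged 2.06 and 40.8 CPM at day 7 and fell by 4.30 (adjusted p = 0.00902). C1rl, which encodes a C1r-like protease, fell by 3.69 (adjusted p = 0.00665). Colec12, a collectin scavenger receptor, fell by 2.41 at day 7 (adjusted p = 0.00329) and fell by 3.16 at day 14 (adjusted p = 0.0013).

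At day 14, C1ra and C1rb, which encode C1r, the protease that activates C1s, fell by 3.66 and 3.87 (adjusted p = 0.0024 and 0.00327). These near copies may share reads. Serping1, which encodes the C1 inhibitor, fell by 3.83 (adjusted p = 0.00301), averaging 31.6 CPM in hydrogel wounds and 449 CPM in controls. In the day 14 controls Serping1 was at 1106, 158 and 81.2 CPM. C1ra was at 287, 60.5 and 28.5 CPM in the same libraries, and C1rb at 93.6, 9.72 and 9.39 CPM. Replicate 1 thus carried most of each control mean, and these falls were not tested without it. C1qbp, a mitochondrial matrix protein first found as a binder of C1q, rose at day 7 by 0.60 (adjusted p = 0.0497), averaging 154 CPM in hydrogel wounds and 101 CPM in controls. C9, of the terminal complex, was the other gene that rose at day 7, at 0.753 and 0.0706 CPM.

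**Figure D4:**
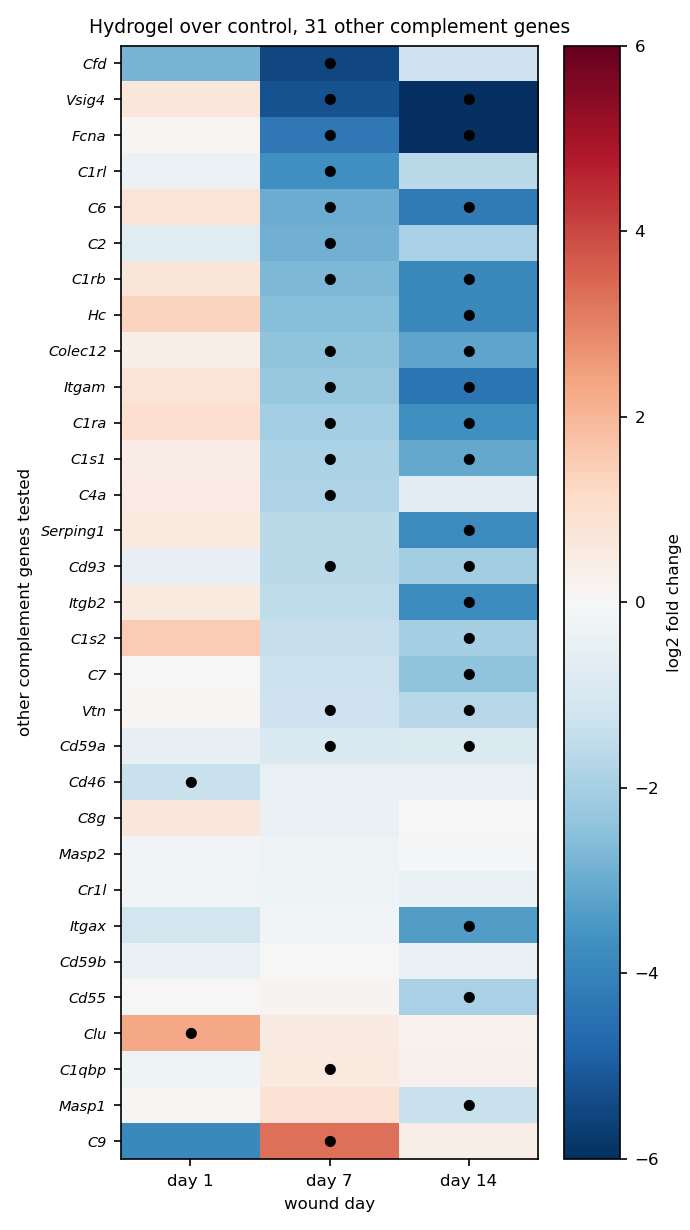
Log2 fold change of hydrogel over control wounds for 31 of the 32 other complement genes tested (rows) at days 1, 7 and 14 (columns), red higher and blue lower in hydrogel wounds, clipped at 6 either way; dots mark an adjusted p under 0.05. The day 1 column has 2 dots, the day 7 column 17 and the day 14 column 19, of which all 19 are on blue cells.

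Genes closest in pattern to the remaining members, by the same measure over the 18 wound libraries and among 11515 candidates, were Fcgr3 for C3ar1 (0.34), Itgam for C5ar1 (0.37), Gmfg for Cfp (0.31), Mrc1 for C3 (0.48) and Efemp1 for C4b (0.40). Itgam encodes a chain of complement receptor 3, and 57% of its exonic bases are shared with another gene model. For Cfb the nearest was Kcnab2 (0.47), but at its counts the pattern is set largely by the prior count of 2. Among the 9 themselves the nearest to C3 was C1qb (0.59), farther than Mrc1.

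In RAW264.7 cells, C3 and Cfb fell with the hydrogel and the receptors and properdin did not pass. Of the 9 genes, 5 had enough counts to test among 12972 genes, and 2 of 5 fell, beside 37.8% of all genes falling and 72.5% passing in either direction. C3 was at 6.28, 6.87 and 8.24 CPM in hydrogel cells, against 24.3, 21.3 and 22.3 CPM in LPS control cells. It fell by 1.66 ± 0.11 (SE) on the log2 scale (adjusted p = 3.86e-07), a 3.16-fold lower level with no overlap. Cfb was at 0.392, 0.308 and 0.378 CPM in hydrogel cells, against 1.63, 1.55 and 1.68 CPM in controls, from 23 and 111 counts. It fell by 2.16 ± 0.22 (adjusted p = 9.54e-06), again with no overlap, a pattern that 39.9% of all genes showed in that direction.

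Cfp was at 224, 190.4 and 155 CPM in hydrogel cells, against 164, 164 and 171 CPM in controls, and C3ar1 at 59.6, 78.9 and 90.3 CPM, against 76.3, 73.8 and 75.2 CPM. C5ar1 was at 152, 154 and 145 CPM in hydrogel cells, against 147, 147 and 153 CPM in controls. The ranges overlapped for all 3 genes. The 95% intervals of the log2 difference were -0.12 to 0.49 for Cfp, -0.31 to 0.36 for C3ar1 and -0.14 to 0.17 for C5ar1 (adjusted p = 0.144, 0.86 and 0.845). Without hydrogel replicate 1 C3ar1 rose by 0.19 (adjusted p = 0.0068), and without hydrogel replicate 3 Cfp rose by 0.38 (adjusted p = 0.000512).

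The C1q genes were near the limit of detection in these cells. C1qa had 2 counts over the 3 hydrogel libraries and 2 over the 3 controls, C1qb 1 and 0, and C1qc 5 and 2. A total of 3 counts over a group corresponds to 0.0461 CPM in hydrogel cells and 0.0442 CPM in controls, for counting error only. C4b had 17 counts in hydrogel cells and 29 in controls, too few to pass the filter. Of the 19 macrophage markers, 18 had counts in both groups and Cd163 was at 0 in both; of the 16 tested, 9 rose and 4 fell, beside 34.7% of all genes rising and 37.8% falling. Csf1r was at 956, 945 and 888 CPM in hydrogel cells, against 440, 437 and 440 CPM in controls, and Adgre1 at 24.4, 36.2 and 43.9 CPM, against 108.9, 105.1 and 105.7 CPM. Tnf, an LPS-induced cytokine, was at 2772, 2781 and 2698 CPM in hydrogel cells, against 3108, 3141 and 3263 CPM in controls, and the 12 LPS-response genes summed to 32753 to 33876 CPM, against 44335 to 44589 CPM, with 8 falling, beside 37.8% of all genes. In wounds, 4 of 10 LPS-response genes tested rose at day 1, 3 fell at day 7 and 6 fell at day 14, beside 4.53%, 11.7% and 10.3% of all genes.

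Per length, Cfp led in the cells at 116 FPKM with the hydrogel and 102 FPKM without, followed by C5ar1 at 58.5 and 58.0 FPKM and C3ar1 at 17.7 and 17.5 FPKM, none of which overlapped a neighbour. C3 was at 1.47 and 4.68 FPKM. Cells and wounds were normalized separately, so levels are not compared across them. Among the other complement genes, 17 were tested in cells, of which 3 rose and 7 fell, beside 34.7% and 37.8% of all genes. Those that rose were C1qbp by 1.62, Itgax by 0.80 and Cr1l by 0.23 on the log2 scale. Those that fell included Colec12 by 1.40, Masp2 by 0.75 and Cd46 by 1.08. Of the exonic bases of Masp2, 54.9% are shared with Tardbp on the other strand, and the counting named no strand option, so its reads are uncertain.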

How the data were processed

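RNA-seq read pairs of 18 wound and 6 RAW264.7 libraries were analysed from the raw counts per gene that the authors deposited, 1 table a library. Per the submitters' processing notes, the tools were Trim Galore 0.6.10, FastQC 0.11.9, HISAT2 2.2.1, SAMtools 1.9 and featureCounts 2.0.6, with build mm10; per the file headers, counts were of read pairs in exons grouped by gene name (GENCODE M25, GRCm38.p6), with no strand option, and pairs that touch several genes were not counted. Mitochondrial genes held 0 counts.

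Counts were TMM-scaled and tested with edgeR 4.0.16 (R 4.3.3; quasi-likelihood F test, robust, filterByExpr with a minimum count of 10 and total of 15, no covariates), wounds (12 residual degrees of freedom) and cells (4) apart, and p-values were adjusted by Benjamini-Hochberg over all genes tested. Alternatives were RLE factors, other filters, DESeq2 1.42.0, limma 3.58.1 voom weights, a replicate block, fits of fewer groups, summed day 7 libraries and leaving out libraries. The fits were also run on simulated data, whose settings and outcome are not reported here, so no conclusion is drawn from them. Replicate pairs were compared by chi-square over genes with a summed count of at least 25.

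The 9 genes and the marker and complement lists were chosen with earlier results of these data known. Named genes are the 9, up to 4 other complement genes a direction by adjusted p whose higher group averaged 1 CPM or more, and the 3 nearest genes by pattern with a mean of at least 5 CPM, of which the nearest is printed. C9 and the marker genes were named in addition, with their values known. Some results that these rules name are not reported here.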

Additional observations from a re-analysis of the deposited data

Results flagged for a closer look

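The hydrogel effect in the wounds differed between days for 7 of the 9 genes, by the interaction test across days 1, 7 and 14. Adjusted p (edgeR, Benjamini-Hochberg over 17592 genes) was 0.0125 for C1qa, 0.0129 for C1qb, 0.00996 for C1qc, 0.0358 for C3, 0.0157 for C3ar1, 0.00403 for C5ar1 and 0.00702 for Cfp. In each, hydrogel minus control was above 0 at day 1 without passing and below 0 at days 7 and 14.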

How the results depend on the processing

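Counts of the 9 genes past the threshold kept within 1.5 times with RLE factors, the stricter filter and DESeq2, which gave C3 no adjusted p in any wound comparison. With limma-voom weights, 8 passed at day 1, 9 for control day 7 against day 1 and 8 for control day 14 against day 7. The same weights gave 8 for hydrogel day 7 against day 1 and 9 for hydrogel day 14 against day 7. Of all 17592 genes, 4345, 10207, 7719, 9229 and 13128 passed in either direction in these comparisons with those weights. With no filter, 4 passed at day 7, 4 in the interaction, 3 for control day 7 against day 1, and 0 in both hydrogel time comparisons. With the day 7 libraries summed, each day 7 arm is 1 sample, with the spread taken from the other groups. Counts past the threshold are not compared for that fit. Its log2 fold changes were -2.77 for C1qa at day 7 and -4.32 for C3 at day 14, close to those reported. Fits of the compared groups alone gave 8 at day 7 and 1 at day 14. They gave 8 for hydrogel day 7 against day 1 and 8 for hydrogel day 14 against day 7. In these fits 11122, 433, 2676 and 10697 of all genes passed in either direction. Without replicate 1 of control days 1 and 14 together, 8 passed at day 1 and 9 for control day 7 against day 1. It was 8 in each of the other 3 time comparisons. All genes passing in that fit numbered 3564 at day 1 and 9393 for control day 7 against day 1. They numbered 6692 for control day 14 against day 7, and 6758 and 7283 in the hydrogel time comparisons. The cause of these differences was not tested.

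Leaving out 1 library gave 0 to 4 at day 1, 3 to 6 at day 7, 5 to 9 at day 14, 6 to 9 in the interaction, 1 to 9 for control day 7 against day 1, 0 to 6 for control day 14 against day 7, 0 to 1 for hydrogel day 7 against day 1, 0 throughout for hydrogel day 14 against day 7 and 2 to 3 in cells. A lone pair left in a group is assumed to vary like the others.

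Signs of log2 values reversed, with the reported and the reversed value both short of the threshold, for C4b at day 1 (0.92 with voom, 0.85 without both replicates 1, -1.25 to 0.85 leaving out 1 library), C1qa at day 1 (-0.0161 without control day 1 replicate 3, to 1.16), C1qb in control day 14 against day 7 (0.24 and 0.31 without control day 14 replicates 2 and 3, -2.39 without replicate 1, which passed) and Cfb there (0.11 without replicate 3, -1.20 without replicate 1). In cells this held for C5ar1 (-0.0013 with the stricter filter, -0.00063 without control replicate 1, 0.104 without hydrogel replicate 3) and C3ar1 (-0.0518 without hydrogel replicate 3, 0.190 without hydrogel replicate 1, which passed).

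The C1q to macrophage log2 ratio, hydrogel minus control, moved to 0.0327, -0.685 and -1.11 at days 1, 7 and 14 without Apoe and Lyz2. On the whole list, leaving out 1 library gave 0.47 to 1.08, -2.43 to -2.35 and -2.79 to -1.74. Libraries were not left out for the shorter list.

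Deviations of same-numbered replicates correlated at -0.02 to 0.37, above 0.1 for 4 of 9 wound pairs and 0 of 3 cell pairs, and the same number was the best match for 7 of 9 and 1 of 3. As not every pair was above 0.1, the numbers were not taken as pairs. With the replicate block, 0 passed at day 1, 8 at day 7, 8 at day 14, 7 in the interaction, 7 for control day 7 against day 1, 0 for control day 14 against day 7, 1 for hydrogel day 7 against day 1, 6 for hydrogel day 14 against day 7 and 2 in cells. Depth limits Cfb in wounds and C1q and C4b in cells.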
